A study of Mus musculus with 6 samples.

Results

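The genes described here are 36 genes of cholesterol and fatty acid synthesis and of its control, out of 14877 named genes that could be tested in the same comparison. They were chosen by name, as probes whose gene name on the array equals a listed gene. The match itself uses no measured value, but the list was chosen with earlier results of these data known. Sc4mol, the array's older name for Msmo1, kept the array's spelling. All 36 genes were on the array, with 53 probes. For each gene, the probe used was well above background on all 4 distinct scanner arrays.

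The cells were RAW264.7, an established mouse macrophage line grown in DMEM with serum. The AEPS group received AEPS, a polysaccharide from Actinidia eriantha roots, for 4 h at 50 µg/ml, and the control group stayed in DMEM medium for the same time, with 3 samples per group. Cy3-labelled cRNA made from total RNA was read on 1-colour Agilent arrays. The comparison asks how transcripts of a macrophage line differ after this exposure. A clonal tumour-derived line stands here for macrophages, and separate cultures are not named in the labels, so the spread behind each p-value is that of these samples and may be technical.

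Cholesterol is built from acetyl-CoA through mevalonate, isoprenoid units, squalene and a series of sterol intermediates. Fatty acids are built from the same precursor by carboxylation, chain synthesis, elongation and desaturation. SREBP transcription factors switch on genes of both routes after the escort protein Scap carries them out of the endoplasmic reticulum, and Insig proteins hold Scap back when sterol is plentiful. In macrophages these routes are known to respond to inflammatory stimuli, and they supply membrane lipid, oxysterols and precursors of lipid mediators.

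Values are those of the authors' deposited table, on a log2 scale on which 1 unit is a 2-fold difference. Columns correlated at 0.986 to 0.993 among controls, at 0.990 to 0.994 among AEPS samples and at 0.968 to 0.980 between groups over all tested features. On the scanner arrays 58.7% and 55.4% of spots in the control group and 56.7% and 55.4% in the AEPS group were well above background, and no spot was saturated. All 8 macrophage markers examined were above background on every scanner array. Of the markers of other cell types, 2 of 4 for adipocytes (Cidec and Lep), 1 of 4 each for hepatocytes (Cyp2e1), fibroblasts (Col1a2), T cells (Cd3e) and B cells (Cd79a), and 0 of 4 for epithelium were. The median adipocyte marker ranged from 3.29 to 4.86 in controls and from 3.95 to 4.24 with AEPS on the log2 scale, and the part of other cell types in the results was not tested. Precision is limited by the number of arrays.

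AEPS was followed by changes in both directions within the pathway. By limma, with Benjamini-Hochberg adjustment over all tested features and a threshold of 0.05, 8 members rose, 9 fell and 19 did not pass on the table's scaling; with spike-in scaling none was called lower. The background over all named genes tested was 21.5% higher, 19.6% lower and 41.2% in either direction, against 22.2%, 25% and 47.2% of the members. The members' share was thus near that of all genes. Members that rose were Hmgcs1, Idi1, Cyp51, Hsd17b7, Insig2, Srebf2, Stard4 and Fads1, and members that fell were Acat2, Mvk, Mvd, Tm7sf2, Ebp, Dhcr7, Srebf1, Scd2 and Elovl1. In bulk RNA, fewer cells with a transcript and less of it per cell cannot be told apart. Changes were small: the median size of a member's log2 change was 0.28, against 0.34 over all genes, and 1 of 36 members, Dhcr7, was both called and changed 2-fold or more, against 8.60% of all genes. The 3 AEPS values lay wholly above the 3 control values for 14 members (background 28.9%) and wholly below for 12 (background 27.8%), and overlapped for 10.

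Directions are relative to the bulk of the array, whose median change was -0.02. Scaling the scanner signals on spike-in RNA instead moved the median of all genes to 0.56 (-0.10 with 75th percentile scaling), and 33 of 36 members then lay above 0. With that scaling 15 members were called higher (background 28.8%) and 0 lower (background 0.921%), and 96.9% of all calls were higher instead of 52.3%. Of the 9 members that fell, 6 (Mvk, Mvd, Tm7sf2, Ebp, Scd2 and Elovl1) turned to values above 0. The others stayed below 0 without being called. They were Dhcr7 at -0.59 (limma adjusted p = 0.0703), Acat2 at -0.20 (limma adjusted p = 0.444) and Srebf1 at -0.04 (limma adjusted p = 0.858). The Srebf1 value was smaller than its SE of 0.14. "Rose" and "fell" below therefore mean relative to other genes, and differences between members do not depend on a factor that scales a whole array. With the replicate number as a block, 13 members were called higher and 12 lower (background 28.5% and 27.9%), all 17 calls of the fit without the block among them. The block added 8 members that had not passed without it. On the scanner arrays alone with 75th percentile scaling, with 2 distinct arrays per group, all 36 members had the same sign as in the table, and 0 were called higher and 1 lower (background 5.24% and 3.47%). These arrays matched the table's replicate 1 and 2 columns at correlations of 0.9992 to 0.9997, so the shared sign is not independent support.

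**Figure D1:**
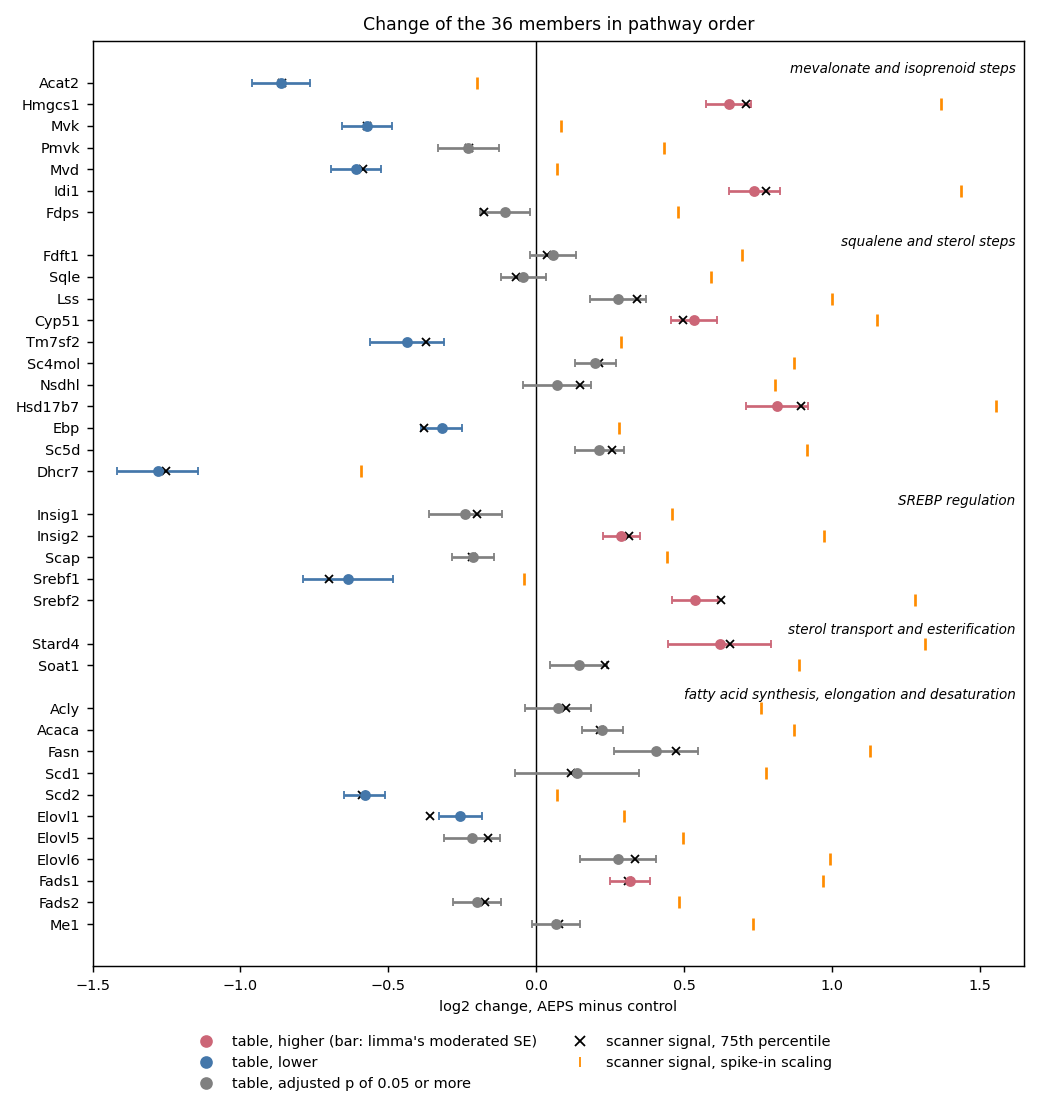
Log2 change, AEPS minus control, of the 36 members in pathway order, with limma's standard error as bars for the authors' table (circles: red higher, blue lower, grey not past an adjusted p of 0.05), and with the scanner signal scaled on the 75th percentile (crosses) or on spike-in RNA (orange ticks). Higher and lower members stand in both routes, and with spike-in scaling 33 of 36 members lie above 0. Crosses, which rescale arrays also behind the table, share the sign of every circle.

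**Figure D2:**
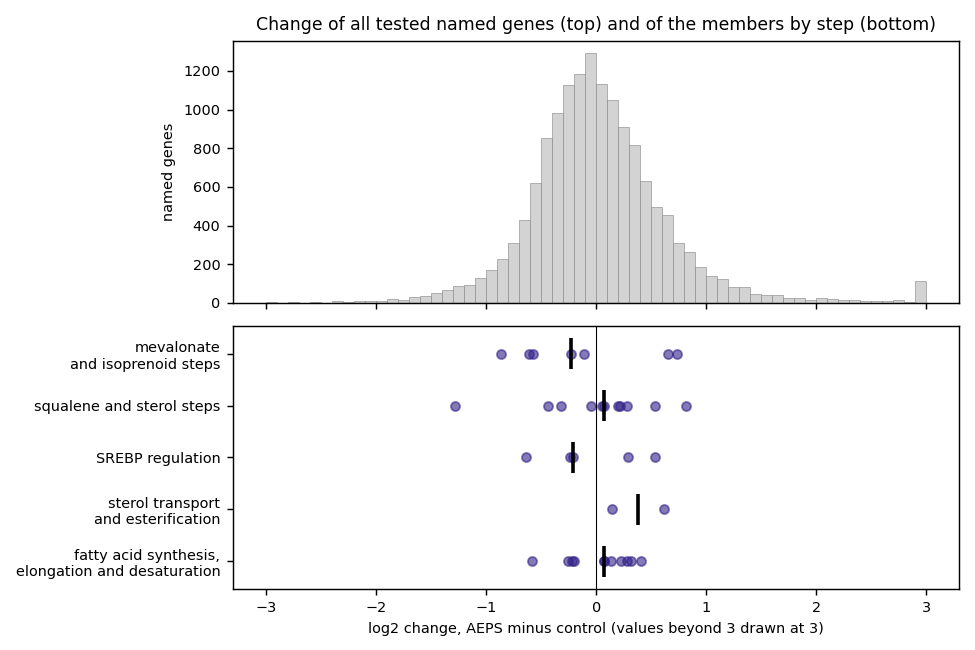
Number of named genes by log2 change, AEPS minus control, over 14877 tested genes (top; values beyond 3 drawn at 3), and each member by step with the group median as a black bar (bottom). Members lie between -1.28 and 0.81 on both sides of 0, within the range of all genes, on the table's scaling. With spike-in scaling 33 of 36 lie above 0.

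Promoters are shown for the 3 members with the largest rises (Hsd17b7, Idi1 and Hmgcs1) and the 3 with the largest falls (Dhcr7, Acat2 and Srebf1), since SREBPs act at such regions, usually beside the factor NF-Y. Each is the 250 bases before a RefSeq transcription start, on the gene's strand in build GRCm38.p6. Capitals mark matches on either strand to a sterol regulatory element (TCACNCCAC), the NF-Y box (CCAAT, or ATTGG on the other strand) or the E-box CACGTG, and none of the marked matches overlaps another. For Dhcr7 and Srebf1 the first of 3 listed starts is shown.
Hsd17b7 at chr1:169969206-169969455, minus strand: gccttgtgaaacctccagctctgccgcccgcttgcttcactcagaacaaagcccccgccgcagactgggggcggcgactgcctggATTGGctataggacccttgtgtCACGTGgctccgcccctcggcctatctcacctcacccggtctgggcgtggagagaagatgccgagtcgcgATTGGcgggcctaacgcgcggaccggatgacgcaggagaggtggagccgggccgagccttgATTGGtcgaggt
Idi1 at chr13:8885356-8885605, plus strand: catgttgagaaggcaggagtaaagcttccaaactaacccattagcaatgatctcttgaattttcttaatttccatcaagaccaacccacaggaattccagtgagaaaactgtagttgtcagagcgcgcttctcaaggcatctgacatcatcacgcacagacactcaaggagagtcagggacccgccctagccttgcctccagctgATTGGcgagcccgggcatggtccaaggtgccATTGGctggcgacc
Hmgcs1 at chr13:119690101-119690350, plus strand: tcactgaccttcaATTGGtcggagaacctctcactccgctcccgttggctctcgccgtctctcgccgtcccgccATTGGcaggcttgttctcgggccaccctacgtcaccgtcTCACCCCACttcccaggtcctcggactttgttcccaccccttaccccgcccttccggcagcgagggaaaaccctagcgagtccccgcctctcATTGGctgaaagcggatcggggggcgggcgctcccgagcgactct
Dhcr7 at chr7:143822917-143823166, plus strand: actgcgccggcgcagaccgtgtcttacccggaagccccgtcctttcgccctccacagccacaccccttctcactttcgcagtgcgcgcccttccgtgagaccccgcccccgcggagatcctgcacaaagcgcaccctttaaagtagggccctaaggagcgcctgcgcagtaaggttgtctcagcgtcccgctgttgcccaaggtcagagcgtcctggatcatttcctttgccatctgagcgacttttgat
Acat2 at chr17:12960726-12960975, minus strand: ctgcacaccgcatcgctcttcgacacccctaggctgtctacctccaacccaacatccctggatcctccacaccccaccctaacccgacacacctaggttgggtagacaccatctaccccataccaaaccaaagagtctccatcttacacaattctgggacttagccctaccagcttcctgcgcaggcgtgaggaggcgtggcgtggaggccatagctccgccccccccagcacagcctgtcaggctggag
Srebf1 at chr11:60222582-60222831, minus strand: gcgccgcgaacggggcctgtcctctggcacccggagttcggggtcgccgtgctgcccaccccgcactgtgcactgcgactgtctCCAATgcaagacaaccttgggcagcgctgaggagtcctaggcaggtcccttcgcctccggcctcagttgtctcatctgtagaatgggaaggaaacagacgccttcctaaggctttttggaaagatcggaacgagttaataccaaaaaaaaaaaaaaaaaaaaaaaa

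Of the 36 members, 29 had promoters in the RefSeq table, with 39 starts in all. The NF-Y box lay in 24 of these 39 windows (61.5%), against 33.8% of 32851 windows of the same length over all genes. The exact sterol element letters lay in 1 of 39 windows, that of Hmgcs1, starting 137 bases before the start, against 1.05% of all windows. The E-box lay in 6 of 39 windows (15.4%), against 6.02% of all windows. Members with and without a change both carried the NF-Y box in the window of at least 1 of their starts, which for Dhcr7 is a start other than the one printed: 6 of 6 members that rose and had a window, 7 of 8 that fell (Acat2 lacked it) and 10 of 15 that did not pass. Matches are letters in these windows and show no binding.

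**Figure D3:**
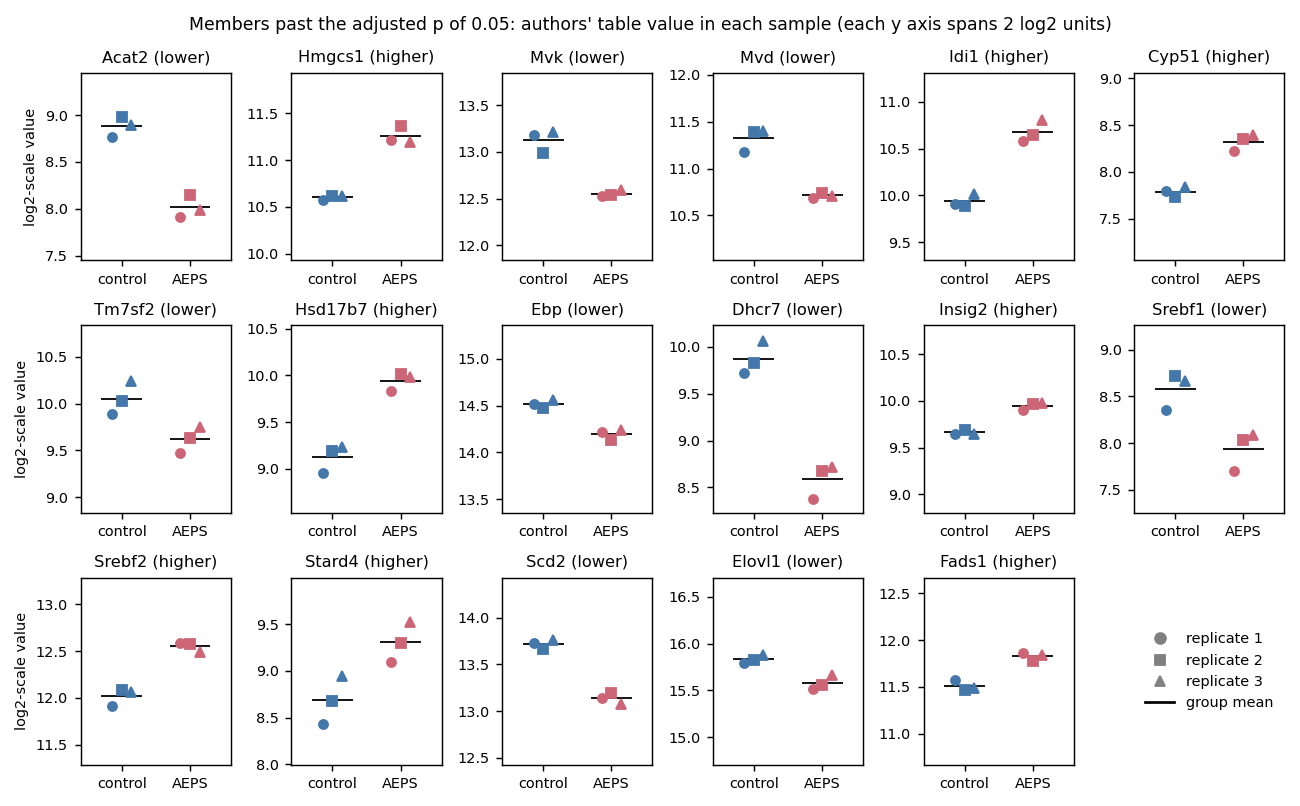
Log2 value of the authors' table in each sample for the 17 members past an adjusted p of 0.05, with controls in blue, AEPS samples in red, a marker per replicate number and a bar at the group mean; every y axis spans 2 log2 units. The 3 AEPS samples lie wholly above or wholly below the 3 controls for each of these members on the table's scaling; spike-in scaling turns Mvk, Mvd, Tm7sf2, Ebp, Scd2 and Elovl1 above 0.

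In the mevalonate and isoprenoid steps, 2 of 7 members rose (28.6%, against 21.5% of all genes), 3 fell (42.9%, against 19.6%) and 2 did not pass, with a median log2 change of -0.23 that became 0.43 with spike-in scaling. Acat2, the cytosolic thiolase that joins acetyl-CoA units to acetoacetyl-CoA at the entry of the route (probe at chr17:13136482-13136541 in mm9), read 8.77, 8.98 and 8.89 in controls and 7.91, 8.15 and 7.99 with AEPS. Its AEPS values all lay below its control values, a log2 change of -0.86 ± 0.10 (SE, n = 3 per group, limma adjusted p = 0.00246), or 1.82-fold lower. Hmgcs1, the synthase that adds the next acetyl unit, went the other way: it read 10.57, 10.62 and 10.62 in controls and 11.21, 11.36 and 11.19 with AEPS. The groups did not overlap, and the log2 change was 0.65 ± 0.08 (SE, n = 3 per group, limma adjusted p = 0.00259), or 1.57-fold higher. Both genes thus moved in opposite directions at consecutive steps.

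Mvk and Mvd, the kinase and the decarboxylase that turn mevalonate into isopentenyl diphosphate, fell, while Idi1, which isomerises that product, rose. Mvk (chr5:114910540-114910599, mm9) read 13.18, 12.99 and 13.21 in controls and 12.53, 12.54 and 12.59 with AEPS, a log2 change of -0.57 ± 0.08 (SE, n = 3 per group, limma adjusted p = 0.00547). Mvd (chr8:124957750-124957809, mm9) read 11.18, 11.39 and 11.40 in controls and 10.69, 10.74 and 10.71 with AEPS, with a log2 change of -0.61 ± 0.09 (SE, limma adjusted p = 0.00469). Every AEPS value of both genes lay under every control value, and AEPS samples differed from each other by less than controls did. Idi1 (chr13:8891524-8891583, mm9) read 9.91, 9.89 and 10.01 in controls and 10.58, 10.64 and 10.80 with AEPS. That is a rise of 0.74 ± 0.09 on the log2 scale (SE, n = 3 per group, limma adjusted p = 0.00273), or 1.67-fold, with all AEPS values above all controls. Pmvk, the kinase between Mvk and Mvd, and Fdps, which joins isoprenoid units to farnesyl diphosphate, did not pass. Pmvk had a log2 change of -0.23 ± 0.10 (SE, limma adjusted p = 0.145; with the replicate block limma adjusted p = 0.0327), and Fdps one of -0.11 ± 0.08 (SE, limma adjusted p = 0.383). With that block 2 of the 7 members were called higher and 4 lower, against 28.5% and 27.9% of all genes.

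In the squalene and sterol steps, 2 of 11 members rose (18.2%, against 21.5% of all genes), 3 fell (27.3%, against 19.6%) and 6 did not pass, with a median log2 change of 0.07 that became 0.81 with spike-in scaling. The members with the largest changes of the pathway in either direction both lie here. Dhcr7, the last reductase on the way to cholesterol (chr7:151033874-151033933, mm9), read 9.72, 9.83 and 10.06 in controls and 8.38, 8.67 and 8.72 with AEPS. All AEPS samples were at least 1 log2 unit below every control: the log2 change was -1.28 ± 0.14 (SE, n = 3 per group, limma adjusted p = 0.00203), or 2.43-fold lower. It was also the member called on the scanner arrays alone with 75th percentile scaling, at -1.25 (limma adjusted p = 0.0407), and it stayed below 0 with spike-in scaling at -0.59 (limma adjusted p = 0.0703).

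Hsd17b7, a ketoreductase that acts during removal of sterol methyl groups (chr1:171883182-171883241, mm9), read 8.96, 9.19 and 9.23 in controls and 9.83, 10.01 and 9.98 with AEPS. The groups were well separated, with a rise of 0.81 ± 0.10 on the log2 scale (SE, n = 3 per group, limma adjusted p = 0.00353), or 1.76-fold. Cyp51, the demethylase that starts this part of the route (chr5:4081471-4081530, mm9), read 7.79, 7.73 and 7.84 in controls and 8.22, 8.35 and 8.39 with AEPS. Its rise was 0.53 ± 0.08 on the log2 scale (SE, n = 3 per group, limma adjusted p = 0.00535), with no overlap.

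Tm7sf2 and Ebp, a sterol reductase and a sterol isomerase, fell by less. Tm7sf2 (chr19:6062882-6062941, mm9) read 9.89, 10.03 and 10.24 in controls and 9.47, 9.63 and 9.75 with AEPS, a log2 change of -0.44 ± 0.12 (SE, n = 3 per group, limma adjusted p = 0.0459). Ebp (chrX:7762463-7762522, mm9) read 14.52, 14.47 and 14.56 in controls and 14.22, 14.13 and 14.24 with AEPS, a log2 change of -0.32 ± 0.07 (SE, limma adjusted p = 0.0184). Neither gene's groups overlapped, but most single samples could not be left out without losing the call. Tm7sf2 lost it without any 1 sample but control replicate 1 (limma adjusted p up to 0.118). Ebp lost it without replicate 2 or 3 of either group (limma adjusted p up to 0.0736).

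The 6 sterol genes that did not pass had log2 changes from -0.04 to 0.28. Fdft1, which makes squalene, changed by 0.06 and Sqle, its epoxidase, by -0.04, with overlapping groups for both. Lss, the cyclase that closes the sterol rings, read 9.10, 9.16 and 9.33 in controls and 9.38, 9.48 and 9.56 with AEPS; the groups did not overlap, but the difference of 0.28 ± 0.09 (SE) had a limma adjusted p of 0.0734. Sc4mol at 0.20 and Sc5d at 0.21, both sterol oxidases, also had AEPS values wholly above controls without passing, and Nsdhl at 0.07 overlapped. Lss, Sc4mol and Sc5d passed with the replicate block (limma adjusted p = 0.0187, 0.033 and 0.0432). With that block 5 of the 11 sterol members were called higher and 3 lower, against 28.5% and 27.9% of all genes.

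Among the regulators of the pathway, 2 of 5 rose (40%, against 21.5% of all genes), 1 fell (20%, against 19.6%) and 2 did not pass, with a median log2 change of -0.21 that became 0.46 with spike-in scaling. The 2 SREBP genes moved apart on the probes used. Srebf1, whose product is best known for driving fatty acid synthesis (chr11:60012664-60012723, mm9), read 8.35, 8.72 and 8.66 in controls and 7.70, 8.03 and 8.09 with AEPS. The log2 change was -0.64 ± 0.15 (SE, n = 3 per group, limma adjusted p = 0.0270), with no overlap. Its call was lost without 5 of the 6 samples in turn, with limma adjusted p up to 0.0899, and with the replicate block it was 0.00495. With spike-in scaling the log2 change of Srebf1 was -0.04 ± 0.14 (SE, limma adjusted p = 0.858). Srebf2, whose product is best known for driving cholesterol synthesis, read 11.91, 12.08 and 12.06 in controls and 12.59, 12.58 and 12.49 with AEPS on its brightest probe, a rise of 0.54 ± 0.08 on the log2 scale (SE, n = 3 per group, limma adjusted p = 0.00547). A second Srebf2 probe did not show this rise.

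Insig2, which retains Scap in the endoplasmic reticulum (chr1:123201085-123201144, mm9), rose slightly, from 9.65, 9.69 and 9.65 in controls to 9.90, 9.97 and 9.98 with AEPS. The log2 change was 0.29 ± 0.06 (SE, n = 3 per group, limma adjusted p = 0.0199), with tight groups that did not overlap, and the limma adjusted p reached 0.0798 with 1 sample left out. Insig1, its paralogue and a well-known SREBP target, read 7.96, 8.19 and 8.36 in controls and 7.82, 8.0 and 7.97 with AEPS. These values overlapped, and the difference of -0.24 ± 0.12 (SE) did not pass (limma adjusted p = 0.197). Scap itself changed by -0.21 ± 0.07 (SE, limma adjusted p = 0.0700; with the replicate block limma adjusted p = 0.0294). With that block 2 of the 5 regulators were called higher and 2 lower, against 28.5% and 27.9% of all genes.

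Of the genes that move or store cholesterol, Stard4, a soluble carrier of cholesterol between membranes, rose. It read 8.43, 8.68 and 8.95 in controls and 9.10, 9.30 and 9.52 with AEPS, the widest spread within groups of any member that rose. The groups did not overlap, and the log2 change was 0.62 ± 0.17 (SE, n = 3 per group, limma adjusted p = 0.0435). The limma adjusted p fell to 0.00477 with the replicate block and reached 0.122 with 1 sample left out. Soat1, which esterifies cholesterol for storage, changed by 0.14 ± 0.10 (SE, limma adjusted p = 0.313), with overlapping groups. With spike-in scaling the median of both genes moved from 0.38 to 1.1.

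In fatty acid synthesis, elongation and desaturation 1 of 11 members rose (9.09%, against 21.5% of all genes), 2 fell (18.2%, against 19.6%) and 8 did not pass, with a median log2 change of 0.07 that became 0.76 with spike-in scaling. Whether this differs from the other steps was not tested. Acly, which makes cytosolic acetyl-CoA from citrate, changed by 0.07, Acaca, which carboxylates it, by 0.22, and Me1, which supplies NADPH, by 0.07; none passed. Fasn, the synthase itself, read 8.23, 8.48 and 8.68 in controls and 8.71, 8.97 and 8.92 with AEPS. Its AEPS values all lay above controls, but the difference of 0.40 ± 0.14 (SE) had a limma adjusted p of 0.0820. With the replicate block Fasn (limma adjusted p = 0.0238) and Acaca (limma adjusted p = 0.0281) passed. With that block 3 of the 11 members were called higher and 3 lower, against 28.5% and 27.9% of all genes.

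The desaturases and elongases divided. Scd2, a stearoyl-CoA desaturase (chr19:44381024-44381083, mm9), read 13.73, 13.66 and 13.76 in controls and 13.14, 13.19 and 13.08 with AEPS. Its groups were tight and separate, with a log2 change of -0.58 ± 0.07 (SE, n = 3 per group, limma adjusted p = 0.00281), or 1.49-fold lower. Scd1, its paralogue, read 6.46, 6.74 and 7.14 in controls and 6.66, 7.02 and 7.07 with AEPS. These overlapped, with a difference of 0.14 ± 0.21 (SE, limma adjusted p = 0.661), a standard error larger than the change. Whether the paralogues differ in response was not tested.

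Fads1, a desaturase of polyunsaturated fatty acids (chr19:10270530-10270589, mm9), rose from 11.57, 11.47 and 11.49 to 11.86, 11.78 and 11.84. The log2 change was 0.32 ± 0.07 (SE, n = 3 per group, limma adjusted p = 0.0175; up to 0.0701 with 1 sample left out). Its neighbour in the same route, Fads2, changed by -0.20 ± 0.08 (SE, limma adjusted p = 0.116; with the replicate block limma adjusted p = 0.0349). Elovl1, which lengthens saturated chains (chr4:118105163-118105222, mm9), read 15.79, 15.83 and 15.88 in controls and 15.51, 15.56 and 15.66 with AEPS, a log2 change of -0.26 ± 0.07 (SE, n = 3 per group, limma adjusted p = 0.0440). The groups did not overlap, yet the call was lost without any 1 of the 6 samples (limma adjusted p from 0.0625 to 0.134). Elovl5 at -0.22 and Elovl6 at 0.28, elongases of polyunsaturated and of saturated chains, did not pass.

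Ratios between members cancel any factor that scales a whole array. They are given as a description for 5 pairs chosen, after the values were seen, because their members had moved in opposite directions, so the sign and separation of the ratios follow from that choice. The log2 ratio of Hsd17b7 over Dhcr7 was higher with AEPS by 2.21, 1.98 and 2.09 in the 3 same-numbered pairs of the table, and by 2.18 and 2.11 on the 2 slides of the scanner arrays. Those arrays match the table's replicate 1 and 2 columns, so they are not a second source. Hmgcs1 over Mvk differed by 1.29, 1.19 and 1.19, and Idi1 over Mvd by 1.16, 1.40 and 1.48. Both pairs come from the mevalonate steps. Fads1 over Scd2, a pair of desaturases, differed by 0.88, 0.78 and 1.03. Srebf2 over Srebf1 differed by 1.33, 1.19 and 1.0 with the Srebf2 probe that rose, but by 0.63, 0.63 and 0.50 with its other probe.

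Of 14 members with more than 1 tested probe, 11 had all probes of 1 sign. That count includes probes that hardly changed, such as 0.017 for Nsdhl and 0.0067 for Acly. How often probes of other genes share a sign was not tested. Both Hsd17b7 probes rose (0.81 and 0.71), both Mvk probes fell (-0.57 and -0.66) and both Elovl1 probes fell (-0.26 and -0.39), each past the threshold when probes were tested singly. Srebf2 was an exception. Its brighter probe lies at chr15:82030068-82030127 in mm9, at base 3011 of the transcript, and its other at chr15:82034765-82034824, at base 3944. The first 30 bases of each probe show that they are different sequences, and the array's annotation assigns both to the same transcript.
Srebf2 probe that rose: atccagctgttcacctgtgacctgctactg
Srebf2 probe that did not: aactaggtctttgcaccagagagcattttg
The second probe changed by -0.05 ± 0.07 (SE, limma adjusted p = 0.617 at probe level), so the rise of Srebf2 holds for 1 of its 2 probes, and its log2 change was 0.24 with probes averaged (limma adjusted p = 0.0468). Stard4's other probe changed by 0.19 and Insig2's by 0.15, neither past the threshold. Tm7sf2's other probe changed by -0.43 and did not pass either (limma adjusted p = 0.123 at probe level). With probes averaged Tm7sf2, Insig2 and Stard4 lost the call (limma adjusted p = 0.0793, 0.0802 and 0.0526). Fdft1's dimmer probe was well above background on both distinct control arrays and on no AEPS array, so its value of -1.38 rests on a group without a measured level and is not set against the 0.06 of its brighter probe. Acaca's 3 tested probes gave 0.22, 0.25 and -0.50, and the probe at 0.25 passed at probe level (limma adjusted p = 0.0325). The probes at 0.22 and 0.25 cover almost the same bases (chr11:84215093-84215152 and chr11:84215094-84215153, mm9), so they are not separate readings of the gene. At probe level the probes at 0.22 and -0.50 each had a limma adjusted p of 0.0547, and the AEPS values of the latter lay wholly below controls.

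**Figure D4:**
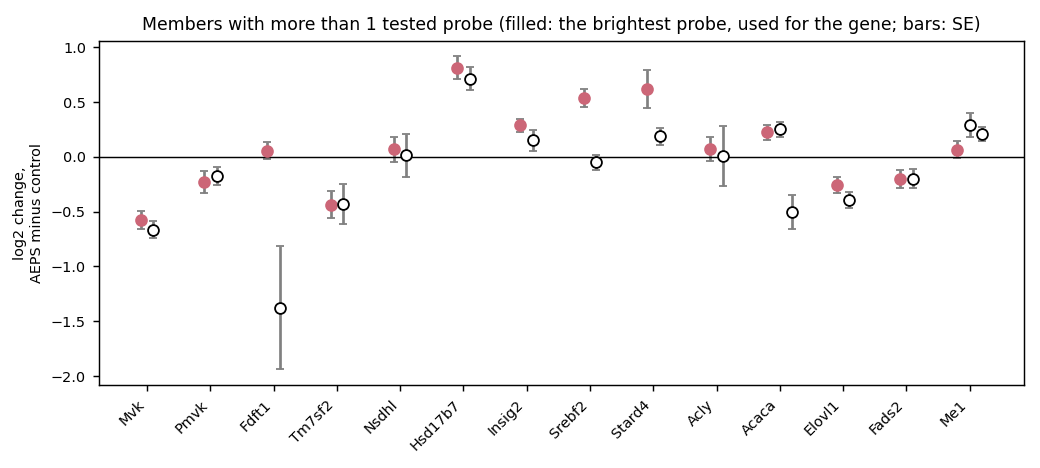
Log2 change, AEPS minus control, of each tested probe of the 14 members with more than 1, with limma's standard error as bars; filled circles are the brightest probe, used for the gene, and open circles the others. Probes of 11 members share a sign on the table's scaling, and those of Fdft1, Srebf2 and Acaca do not; the open Fdft1 probe was not well above background on any AEPS array.

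Other lipid genes around the pathway were examined as 5 lists of 75 genes, of which 72 were tested. Cyp7b1, Vldlr and Elovl7 were not. These lists were chosen with earlier results of these data known, so their shares beside the background are a description only. Of the 72, 21 rose, 15 fell and 36 did not pass on the table's scaling, against the background of 21.5% and 19.6%. With the replicate block 22 were called higher and 20 lower, against 28.5% and 27.9% of all genes. With spike-in scaling 25 were called higher and 1 lower, against 28.8% and 0.921% of all genes. Sterol efflux and oxysterol genes included the largest changes, although the median size of change in that list was 0.23, against 0.34 over all genes. Ch25h, which makes an oxysterol known to restrain SREBP processing, did not rise well above background on either control array; its AEPS level was at least 7.75-fold higher, a lower bound against the lowest detectable signal. It could be tested only through the AEPS group, where it is high, which fixes its direction. Abca1, a cholesterol exporter, rose from 5.08, 5.47 and 5.57 to 7.90, 8.09 and 7.94, a log2 change of 2.60 ± 0.15 (SE, n = 3 per group, limma adjusted p = 0.00034). Abcg1, its partner in efflux, went from 11.05, 11.00 and 11.04 to 8.79, 8.88 and 8.86, a log2 change of -2.19 ± 0.06 (SE, n = 3 per group, limma adjusted p = 7.14e-05). Both exporters kept their direction with spike-in scaling, and their groups were far apart. In that list 2 of 10 genes rose and 2 fell (20% each, against 21.5% and 19.6% of all genes), Ch25h among those that rose.

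Among uptake, lysosomal and transport genes 5 of 15 rose and 5 fell (33.3% each, against 21.5% and 19.6% of all genes). Gramd1a, a carrier of cholesterol from the plasma membrane, rose by 1.16 ± 0.08 (SE, limma adjusted p = 0.000633), although its 2 probes disagreed and their mean gave 0.22 (limma adjusted p = 0.887). The oxysterol-binding protein relatives Osbpl8 and Osbpl9 changed by 0.79 (limma adjusted p = 0.00543) and -0.74 (limma adjusted p = 0.0354; up to 0.111 with 1 sample left out). Of SREBP processing and sterol sensing genes 3 of 9 rose and 1 fell (33.3% and 11.1%), and of genes of other isoprenoid branches 1 of 10 rose and 2 fell (10% and 20%), against the same background. Among genes of fatty acid supply, activation and lipid assembly 10 of 28 rose and 5 fell (35.7% and 17.9%, against 21.5% and 19.6%). There Fabp4, a fatty acid carrier of macrophages and adipocytes, rose by 1.73 ± 0.20 (SE, limma adjusted p = 0.00266), and Acsl4, which activates arachidonate, by 0.76 ± 0.09 (SE, limma adjusted p = 0.00284).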

How the data were processed

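The labels give 6 samples, 3 control and 3 AEPS, on 1-colour Agilent arrays. Per sample, the authors' deposited value table has 1 column of log2 values. Once sorted, columns agreed within 0.01, with a common median of 4.71, as after quantile normalization; the log offset is unstated. Deposited scanner files, read with Agilent Feature Extraction 10.7.1.1 per the file headers, give spot intensity after background subtraction within each array. The files labelled replicates 1 and 2 were identical in each group and counted once, leaving 4 distinct arrays. Each of 2 slides carried an array of each group. The file labelled replicate 3 matched the table's replicate 2 column, and no scanner file matched the replicate 3 columns.

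The table was the main source, with scanner values as the alternative. RefSeq accessions (GRCm38.p6) named 26576 of 55681 probes and the array's annotation 4545 more, with 24560 unnamed; probe coordinates are in mm9, per the file headers. Tested probes were well above background on both distinct arrays of at least 1 group, and a gene was represented by its brightest tested probe. AEPS was compared with control in limma 3.58.1 (R 4.3.3; lmFit, then eBayes, no covariates), adjusted over 25854 features at a threshold of 0.05; the calculation was tested on simulated data. Other settings were 75th percentile, normexp (offset 50) with quantile, and spike-in scaling, the slide or replicate number as a block, other filters, probe averages, an intensity trend, and leaving out each sample. The use of replicate numbers 1 and 2 alone and the fit of single probes were added after seeing the data.

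Same-numbered samples deviated together from their group means. For replicate numbers 1 and 2 the matching scanner arrays of both groups shared a slide, so a shared culture and a shared slide cannot be told apart. The main fit was planned without the block, and the fit with it is the alternative. Correlations were 0.58, 0.38 and 0.41 over 14877 genes, against -0.50 to 0.24 for other pairs, with a bound of 0.1. The value of 0.24 was that of control 3 with AEPS 2. Deviations of 3 samples from their own mean sum to 0, which by itself lowers the values of other pairs. Values with the replicate block are printed where they change the call of a member, and as counts for the related lipid genes. The members and lists were chosen with earlier results of these data known. Called members are named with full values, the others with their changes, and of the related genes the 8 with the largest changes past the threshold.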

Additional observations from a re-analysis of the deposited data

How the results depend on the processing

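All 17 called members kept their direction under 15 of 16 alternatives. The exception was spike-in scaling, under which 11 did, and the cause was not tested. Many of these outcomes were fixed in advance. The groups of all 17 did not overlap, so leaving out samples could not reverse a sign. The replicate block and intensity trend leave the log2 change as it was, and the slide block repeats that of the 75th percentile. Counts of members called higher (8 in the table) and lower (9) were 0 and 1 with the 75th percentile, 5 and 4 with normexp and quantile, 15 and 0 with spike-in scaling, and 2 and 1 with replicate numbers 1 and 2 alone, an alternative chosen after seeing the data; the first 3 rest on 2 arrays per group. The replicate block gave 13 higher members and kept all 17 calls. Leaving out 1 sample gave 5 to 7 higher and 5 to 8 lower members. Of the 17, 10 kept the call without any 1 sample. Elovl1 lost it without any of the 6. Tm7sf2, Srebf1 and Fads1 lost it without any sample but control replicate 1, and Insig2 without any but AEPS replicate 1. Ebp lost it without replicate 2 or 3 of either group, and Stard4 without control replicate 1 or 2 or AEPS replicate 2 or 3.

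Over all named genes, 3205 were higher and 2923 lower in the table, 779 and 516 with the 75th percentile, 1508 and 1212 with normexp, 1181 and 795 with replicate numbers 1 and 2 alone, 2103 to 2852 and 1869 to 2586 with 1 sample left out, and 137 lower with spike-in scaling. Related lipid genes (21 higher, 15 lower) numbered 4 and 1 with the 75th percentile, 12 and 5 with normexp and 9 and 2 with replicate numbers 1 and 2 alone. With 1 sample left out they numbered 16 to 18 and 8 to 12. Spike-in scaling gave 25 and 1, against 28.8% and 0.921% of all genes. The slide as a block gave 17 and 8, against 16.6% and 17.2% of all genes.

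Median log2 changes with spike-in scaling were 0.43 for mevalonate, 0.81 for sterol, 0.46 for SREBP, 1.1 for transport and 0.76 for fatty acid genes. The mevalonate median was -0.30 with normexp and -0.28 to -0.16 with 1 sample left out. The sterol median was 0.15 with the 75th percentile or the slide block, 0.12 with replicate numbers 1 and 2 alone and 0.04 to 0.15 with 1 sample left out. The SREBP median was -0.10 with normexp and -0.245 to -0.145 with 1 sample left out, the transport median 0.27 with probes averaged and 0.29 to 0.48 with 1 sample left out, and the fatty acid median -0.015 to 0.16. Log2 changes that turned above 0 with spike-in scaling were Mvk 0.085, Pmvk 0.43, Mvd 0.071, Fdps 0.48, Sqle 0.59, Tm7sf2 0.29, Ebp 0.28, Insig1 0.46, Scap 0.44, Scd2 0.068, Elovl1 0.30, Elovl5 0.50 and Fads2 0.48. With probes averaged Fdft1 gave -0.66, by a probe not well above background with AEPS, and Acaca -0.0089. With 1 sample left out, the uncalled changes of Sqle (-0.077 to 0.0033), Nsdhl (-0.01 to 0.15), Acly (-0.015 to 0.16) and Scd1 (-0.023 to 0.32) spanned 0.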
